A study of Homo sapiens with 12 samples.

Results

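WNT target genes and secreted WNT inhibitors were followed in human neural progenitor cells (hNPCs) in which miR-10a or miR-10b was switched on. The set held 5 target genes, AXIN2, LEF1, SP5, NKD1 and RNF43, and 5 secreted inhibitors, DKK1, DKK3, SFRP1, SFRP2 and FRZB. They were found by gene symbol among 25718 listed genes, and the transcript with the highest mean count stood for a gene with several. Of the 10 members, 8 had a mean above 10 counts and belonged to the 11451 genes tested. LEF1 and RNF43 did not reach that level.

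The cells were H9, an established human embryonic stem cell line grown on mouse feeder cells. All 12 samples carried a lentiviral vector, added at a multiplicity of infection of 50, that encodes a GFP reporter and either miR-10a or miR-10b under the control of doxycycline. All were differentiated for 14 days towards ventral midbrain (MB). Patterning used SHH at 200 ng/ml and CT99021, an inhibitor of the kinase GSK3, labelled as CT0.8. By the study's methods both were given early in differentiation, together with SMAD inhibition for neuralization. That treatment had ended before day 11, so doxycycline was added after CT99021 was withdrawn. The miR-10a dox and miR-10b dox groups received doxycycline from day 11 to harvest on day 14. The miR-10a control and miR-10b control groups carried the same vectors and received none. Each of the 4 groups had 3 samples. The cells were a transduced population that was not sorted, and no GFP-only vector was among the samples analysed here, so an effect of doxycycline itself cannot be told apart from that of miR-10. The study's differentiation methods describe the groups as done in triplicate and do not say whether these were independent differentiations, so p-values measure the spread between these samples, which may be technical.

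WNT proteins bind Frizzled receptors and LRP co-receptors at the cell surface. In the canonical pathway this stops the destruction complex, in which GSK3 acts, from marking β-catenin for breakdown, and β-catenin then works with TCF/LEF factors on target genes. Many target genes encode feedback inhibitors, and secreted inhibitors catch either the WNT ligand or the co-receptor before a signal starts. In the early neural tube, WNT signals help to set caudal identity and to form the midbrain, and GSK3 inhibitors are used in culture to mimic them.

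Total counts were between 10545487 and 14165426 per sample, and every control had a higher total than each doxycycline sample of its vector. Values are given as CPM, which scales each count by the total of its sample, and on this scale 3 counts correspond to 0.212 to 0.284. The precursor of the induced miRNA rose as labelled. MIR10A was at 731, 729 and 711 CPM in the miR-10a dox samples and between 0.641 and 1.37 CPM in the miR-10a control samples. MIR10B was at 2662, 2541 and 2653 CPM in the miR-10b dox samples and between 2.89 and 4.45 CPM in their controls. The neural progenitor genes NES and SOX2 were abundant, with NES between 4341 and 5188 CPM. Of 10 ventral midbrain genes, FOXA2, which the study also places in ventral hindbrain, and LMX1A were low at 5.98 to 9.61 and 2.49 to 8.08 CPM. The sum over the 10 genes was 2699 to 3808 CPM, with NTN1, the most abundant, at 1603 to 2445 CPM. The pluripotency genes POU5F1 and NANOG did not exceed 3 counts in any sample. Replicate 2 of the miR-10b dox group stood apart from its fellows, with a chi-square per degree of freedom of 3.16 and 4.10 against 1.23 to 1.93 in all other replicate pairs.

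The sequence through which a miRNA recognises its targets is the seed, bases 2 to 8, printed here in capitals. The mature miR-10a sequence in RefSeq (GRCh38.p14) is encoded on the minus strand at chr17:48579904-48579926.
hsa-miR-10a-5p: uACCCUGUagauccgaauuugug

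Matches to this seed were searched in the longest 3′UTR that GENCODE 44 gives each gene on GRCh37. A 7mer-m8 match pairs with all bases of the seed, a 7mer-A1 match pairs with bases 2 to 7 and is followed by A, and a 6mer pairs with bases 2 to 7 alone. Of the 10 members, 3 held a 7mer or 8mer match, NKD1, DKK3 and SFRP1, and 2 held only a 6mer, FRZB and RNF43. In comparison, 21.1% of 9258 tested genes whose 3′UTR is annotated held a 7mer or 8mer match. AXIN2, LEF1, SP5, DKK1 and SFRP2 held none of these letters in their 3′UTRs. The stretches that carry the 7mer-m8 matches of NKD1 and DKK3 and the 6mer of FRZB are shown to give the letters and place of the matches, with the matched letters in capitals. Both NKD1 sites lie in the last of 10 exons on the plus strand of chromosome 16, at chr16:50669817-50669823 and chr16:50677588-50677594. The DKK3 sites lie in the last of 8 exons on the minus strand of chromosome 11, at chr11:11982719-11982725, chr11:11980220-11980226 and chr11:11979247-11979253. The FRZB site lies in the last of 6 exons on the minus strand of chromosome 2, at chr2:183698657-183698662.
NKD1 site 1: tttgagatgACAGGGTccaggatgt
NKD1 site 2: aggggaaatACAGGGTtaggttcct
DKK3 site 1: tcacaggatACAGGGTttaggatgt
DKK3 site 2: ttggttctcACAGGGTgtgcatggt
DKK3 site 3: gaaatactgACAGGGTtccccaaag
FRZB site: cacgtgcacCAGGGTtagttttta

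Not all of these sites can be read against the counts. The annotated 3′UTR of NKD1, at 15468 bases, is longer than the whole counted transcript of 8716 bases. Its site 1 is at base 2125 of the 3′UTR, and site 2, at base 9896, lies farther in than the counted transcript is long. The 3′UTR of DKK3 has 8257 bases against 2746 in the counted transcript, and its 3 sites, at bases 3286, 5785 and 6758, all lie farther in than that. SFRP1 held 2 7mer-A1 and 2 6mer matches in a 3′UTR of 3205 bases.

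Before any comparison, the members differed widely in level. On a scale of CPM per kilobase of the counted transcript, averaged over the 12 samples, SFRP1 was highest at 216, with a range of 186 to 233. SFRP2 followed at 66.8 (50.4 to 87.2), then NKD1 at 46.8 (43.4 to 49.7) and AXIN2 at 44.7 (41.6 to 47.8). The ranges of NKD1 and AXIN2 overlapped, and that of SFRP2 lay above both. SP5 at 17.9 (8.46 to 29.9) and FRZB at 11.1 (8.78 to 13.5) also overlapped, and DKK1 was far lower at 1.95. DKK3, LEF1 and RNF43 closed the order at 0.379, 0.150 and 0.0924 CPM per kilobase, where the range of LEF1 overlapped those of its neighbours and DKK3 lay above RNF43. Among the 5 inhibitors, SFRP1 made up 69.3% to 76.2% of the summed level per length, SFRP2 19.3% to 26.2% and FRZB 3.40% to 4.17%. DKK1, which blocks the LRP co-receptor, made up no more than 0.903%. Within these 5 genes, those that bind WNT itself thus gave nearly all of the summed level, and other inhibitors were not part of this sum. LEF1 has 4 transcripts in the table and DKK3 has 3, and in these files genes with 1 transcript held 92.8% of all counts, so levels of genes with several transcripts are uncertain and a low count does not mean low expression.

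**Figure D1:**
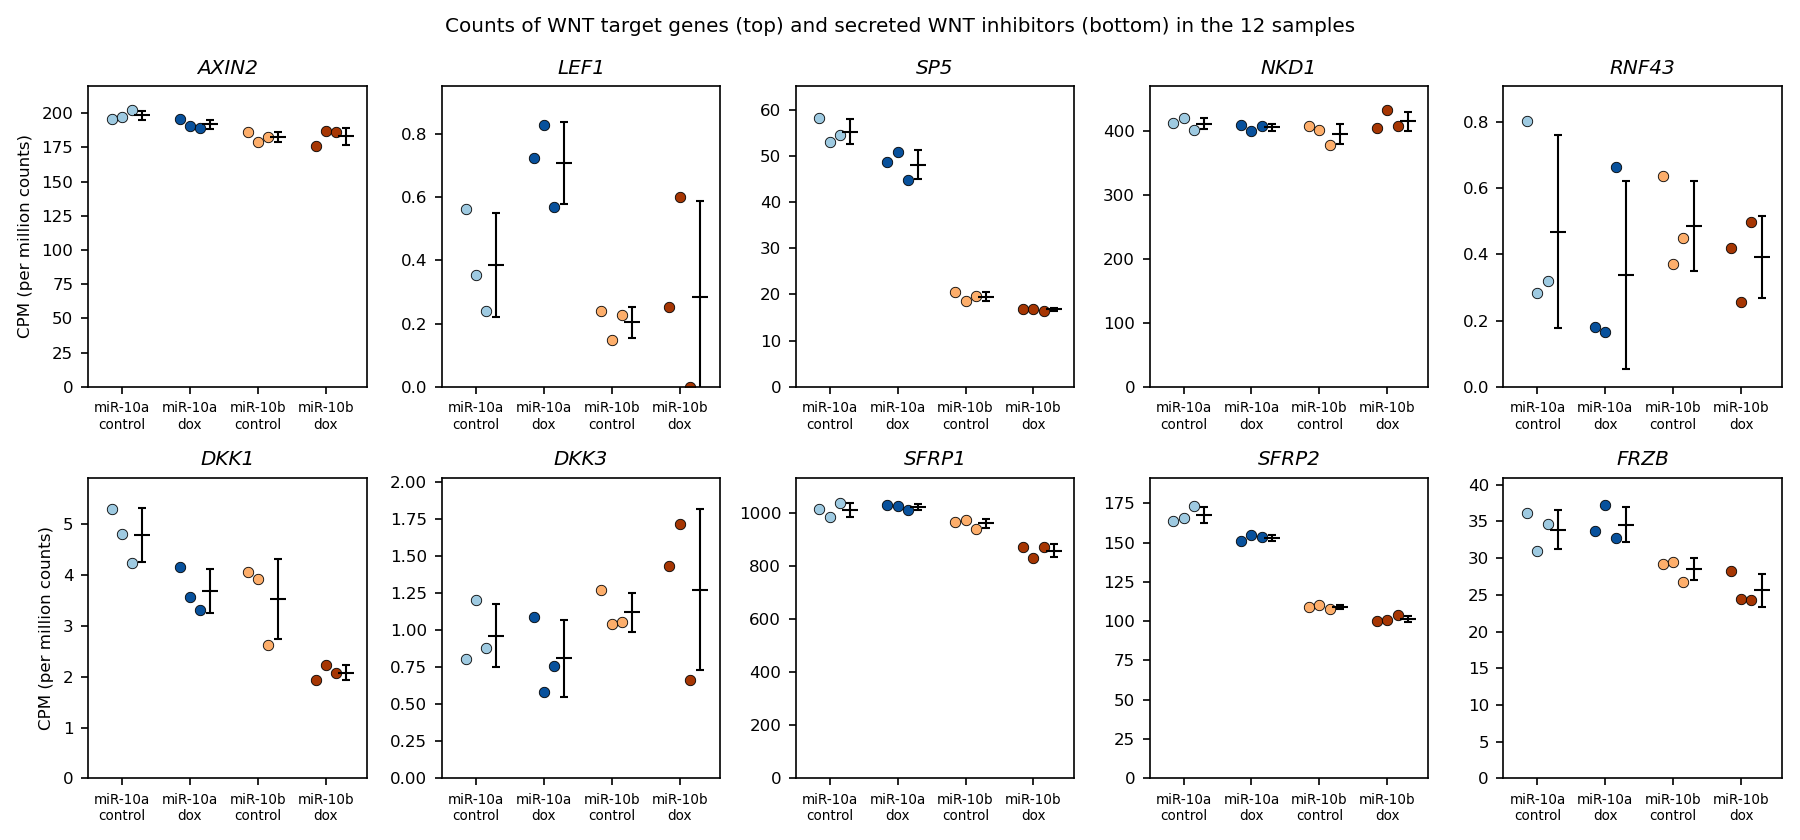
CPM (vertical axis, from 0, a scale of its own in each panel) of the 10 members in each of the 12 samples, target genes in the upper row and secreted inhibitors in the lower row. Points are samples and the bar beside them is the mean ± SD (n = 3). The dox samples of SP5, DKK1 and SFRP2 lie below the control samples of their own vector with both vectors, and those of SFRP1 only with miR-10b.

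The first question was what 3 days of miR-10 did to WNT target genes, which are the usual readout of the pathway. Of the 3 target genes tested, SP5 fell over both vectors and AXIN2 and NKD1 did not pass the test. SP5 encodes a transcription factor that is induced by β-catenin and damps the expression of other target genes. Its level was 48.7, 50.8 and 44.8 CPM in the miR-10a dox samples and 58.2, 52.9 and 54.5 CPM in the miR-10a control samples. With miR-10b it was 16.9, 16.8 and 16.5 CPM with doxycycline and 20.4, 18.5 and 19.7 CPM without. With neither vector did the dox and control samples of SP5 overlap. The average change over both vectors was a log2 fold change of -0.21 ± 0.05 (SE), 13.5% lower, with an adjusted p of 0.00382 (edgeR's quasi-likelihood test, Benjamini-Hochberg adjustment over all tested genes). With each vector alone the difference missed the threshold, at -0.19 (adjusted p = 0.0964) with miR-10a and -0.22 (adjusted p = 0.0643) with miR-10b.

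SP5 is shown with its promoter because it is the target gene that fell in the average of both vectors. RefSeq promoter windows of 300 bases (GRCh38.p14) were found for 6 of the 10 members, LEF1, SP5, RNF43, DKK1, SFRP2 and FRZB, and were searched on both strands for CTTTGAT, a form of the TCF/LEF motif, and for its shorter core CTTTGA, which lies within it. SP5 held CTTTGAT at 109 bases before its start site, on the plus strand, within the stretch at chr2:170715217-170715245. It held the core at 2 further places, within the stretches at chr2:170715179-170715206 and chr2:170715243-170715270. DKK1 held the core at 2 places, within the stretches at chr10:52314121-52314148 and chr10:52314175-52314202, and no CTTTGAT. The other members with a window held neither. AXIN2 and NKD1 had no window, so SP5 cannot be set against the other target genes tested. A part of the motif in the fall of SP5 was not tested. CTTTGAT stood in 2.62% of 35116 promoter windows and CTTTGA in 12.9%. All stretches are written along the gene's own strand with the motif, or its reverse complement, in capitals. The coordinates are those of the whole printed stretch, 29 bases for CTTTGAT and 28 for the core.
SP5 motif: gagccgctattCTTTGATgattgggtagc
SP5 core, upstream: gctttgtggatTCAAAGgatttgctttc
SP5 core, downstream: agcggcaaactTCAAAGccataaatctt
DKK1 core, upstream: ggtgaagagtgTCAAAGgccccccttca
DKK1 core, downstream: ccctcccagcgCTTTGAaatcccatccc

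AXIN2 encodes a scaffold of the destruction complex and is the most widely used general readout of canonical WNT signalling. It was at 196, 190 and 189 CPM in the miR-10a dox samples and at 196, 198 and 202 CPM in their controls, and at 176, 187 and 186 CPM with miR-10b dox against 186, 179 and 182 CPM. The miR-10a dox samples all lay below their controls by a narrow margin, and the miR-10b groups overlapped. The average log2 fold change was -0.02, with a 95% confidence interval of -0.08 to 0.03 (adjusted p = 0.621), so a change of more than 5.09% downwards lay outside the interval. NKD1 encodes a cytoplasmic inhibitor that binds Dishevelled. Its level was 411, 400 and 408 CPM with miR-10a dox and 413, 420.5 and 403 CPM in the controls, and 405, 433 and 408 CPM with miR-10b dox against 408, 402 and 379 CPM. The groups overlapped with both vectors. For miR-10a the log2 fold change was -0.02 (95% confidence interval -0.09 to 0.05, adjusted p = 0.891), and for miR-10b it was 0.07 (-0.00088 to 0.14, adjusted p = 0.187). Of the 7mer-m8 matches of NKD1 shown above, only site 1 lies within reach of the counted transcript's length.

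LEF1, a transcription factor of the pathway and its target, had 8, 10 and 6 counts in the miR-10a dox samples and 7, 5 and 3 in the controls, and 3, 7 and 0 with miR-10b dox against 3, 2 and 3. RNF43, a ubiquitin ligase that removes Frizzled receptors, had 2, 2 and 7 counts with miR-10a dox and 10, 4 and 4 in the controls, and 5, 3 and 6 with miR-10b dox against 8, 5 and 6. Reads of LEF1 and its antisense partner LEF1-AS1 cannot be told apart unless counting used the strand. In CPM the miR-10a dox samples of LEF1, at 0.569 to 0.828, lay narrowly above their controls at 0.240 to 0.563. Another LEF1 transcript went the other way, with 0, 2 and 0 counts with miR-10a dox against 5, 3 and 1. Both LEF1 and RNF43 lay close to the floor of 3 counts. Neither passed the test in the fit without a filter on low counts.

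The next question was whether the secreted inhibitors moved. In the average of both vectors, 3 of the 5 inhibitors were lower, DKK1, SFRP1 and SFRP2, and FRZB and DKK3 did not pass the test. Of these, SFRP1 was lower with miR-10b and not with miR-10a. DKK1 is a high-affinity ligand of the LRP co-receptors that keeps them from joining a WNT signal. It had 4.17, 3.56 and 3.32 CPM in the miR-10a dox samples and 5.30, 4.80 and 4.25 CPM in the controls. With miR-10b it had 1.94, 2.23 and 2.08 CPM with doxycycline and 4.05, 3.93 and 2.63 CPM without. The dox samples lay below the controls with both vectors, at 23 to 46 counts against 35 to 68. With miR-10b the log2 fold change was -0.76 ± 0.21 (SE), 40.9% lower with a 95% confidence interval of 21.1% to 55.8% (adjusted p = 0.00886). With miR-10a it was -0.38 ± 0.17 (adjusted p = 0.389), and over both vectors -0.57 ± 0.13 (adjusted p = 0.00298). Without replicate 1 or replicate 2 of the miR-10b controls the change with miR-10b was -0.65 and -0.67, and the adjusted p rose to 0.052 and 0.0548. Without the miR-10b dox replicate that stood apart it was -0.81 (adjusted p = 0.0149).

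SFRP1, SFRP2 and FRZB are secreted relatives of the Frizzled ectodomain that bind WNT outside the cell. SFRP1 had 1031, 1027 and 1010.5 CPM in the miR-10a dox samples and 1014, 984 and 1039 CPM in the controls. It had 872, 829 and 873 CPM in the miR-10b dox samples and 967, 974 and 941 CPM in the controls. The miR-10a groups overlapped and the miR-10b groups did not. SFRP1 fell with miR-10b, with a log2 fold change of -0.16 ± 0.03 (SE), 10.7% lower (adjusted p = 1.44e-04), and was at 0.02 ± 0.03 with miR-10a (adjusted p = 0.912). The 2 effects were compared directly, and they differed by -0.18 ± 0.04 (adjusted p = 0.0158). Without the miR-10b dox replicate that stood apart, whose SFRP1 level was the lowest of all, the effect with miR-10b was -0.14 (adjusted p = 3.18e-04) and the difference -0.15 (adjusted p = 0.0129). The difference missed the threshold without miR-10a dox replicate 1 (-0.17, adjusted p = 0.0588), without miR-10a control replicate 2 (-0.16, adjusted p = 0.0667) or without miR-10b control replicate 2 (-0.17, adjusted p = 0.0607). The average over both vectors, -0.07 (adjusted p = 0.0154), missed it without miR-10a control replicate 3 (adjusted p = 0.0647) or miR-10b control replicate 2 (adjusted p = 0.0514).

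SFRP2 had 151, 155 and 153 CPM with miR-10a dox and 164, 166 and 173 CPM in the controls, and 100.3, 100.6 and 104 CPM with miR-10b dox against 109, 111 and 108 CPM. No dox sample reached a control sample of its vector. SFRP2 fell over both vectors, with a log2 fold change of -0.12 ± 0.03 (SE), 7.85% lower (adjusted p = 0.00267). With each vector alone the threshold was missed, at -0.13 (adjusted p = 0.0746) and -0.10 (adjusted p = 0.0774). FRZB, also known as SFRP3, had 33.7, 37.3 and 32.7 CPM with miR-10a dox and 36.1, 30.9 and 34.6 CPM in the controls, and 28.2, 24.4 and 24.3 CPM with miR-10b dox against 29.2, 29.5 and 26.7 CPM. Its groups overlapped with both vectors, and the average log2 fold change was -0.06 (-0.17 to 0.05, adjusted p = 0.532). DKK3, a divergent member of the Dickkopf family, had 12, 7 and 8 counts with miR-10a dox and 10, 17 and 11 in the controls, and 17, 20 and 8 with miR-10b dox against 16, 14 and 14. Its average log2 fold change was -0.05 (-0.53 to 0.44), an interval that covers changes in both directions.

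**Figure D2:**
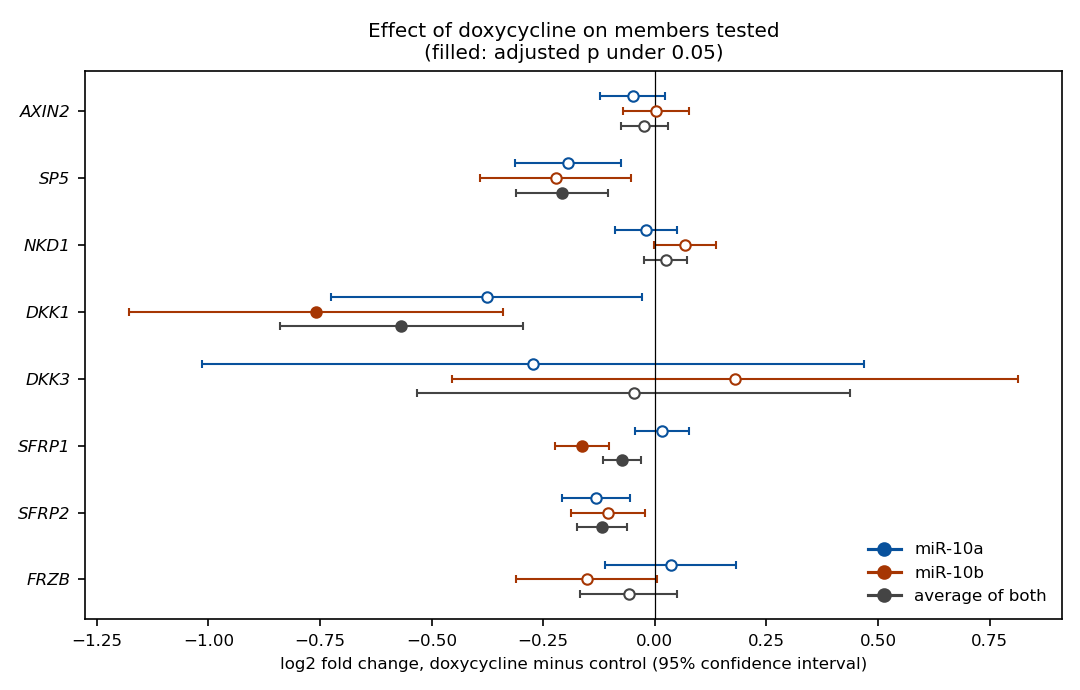
Log2 fold change, doxycycline minus control (horizontal axis), of the 8 members tested, with 95% confidence intervals, for each vector and the average of both. Filled points have an adjusted p under 0.05: DKK1 and SFRP1 with miR-10b, and SP5, DKK1, SFRP1 and SFRP2 in the average, all below 0.

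Counted together, none of the 8 members tested passed with miR-10a, where 1.21% of all tested genes did. At an unadjusted p under 0.05, 3 members did so with edgeR (SP5, DKK1 and SFRP2), where 11.2% of all tested genes did. DESeq2 called 0 members after adjustment, and 129 of 11451 tested genes. Without adjustment it called 2 members, a count that cannot be read because the share of all tested genes was not computed. With miR-10b, 2 of 8 members passed, both lower, beside 15.3% of all tested genes in either direction and 7.15% lower. In the average of both vectors 4 of 8 passed, all lower, beside 13.9% of all tested genes in either direction and 6.22% lower. SFRP1, which is among them, was at 0.02 with miR-10a. In the difference between the vectors 1 of 8 passed, beside 1.96%. The dox samples of 4 members lay wholly below their controls with miR-10a, beside 7.75% of all tested genes, and those of 4 members with miR-10b, beside 12.3%. SP5, DKK1 and SFRP2 did so with both vectors, beside 2.95%. For miR-10a the 8 members had a median log2 fold change of -0.09 beside 0.01 for all tested genes, and for miR-10b -0.13 beside 0.02.

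Levels of marker genes moved in the same comparison. The summed level of 7 roof plate and dorsal genes, of which 4 had a mean above 10 counts, was 42.7 to 45.9 CPM with miR-10a dox against 51.4 to 53.1 CPM in its controls, and 49.3 to 49.7 CPM with miR-10b dox against 69.0 to 75.7 CPM. PAX3 of this list did not exceed 3 counts. The sum over 10 neural progenitor genes was 12401 to 12759 CPM against 12807 to 12908 CPM with miR-10a, and 13566 to 13668 CPM against 14123 to 14252 CPM with miR-10b. The sum over 6 mesenchyme genes was 291 to 313 CPM with miR-10b dox against 349.9 to 369.9 CPM, with DCN at 3 counts or fewer. The sum over 9 neuronal genes, most of it from INA, was higher with miR-10b dox, at 597 to 623 CPM against 557 to 582 CPM. The sum over 10 ventral midbrain genes was higher with miR-10a dox, at 2751 to 2797 CPM against 2699 to 2741 CPM. Most of that sum came from NTN1, and LMX1B did not exceed 3 counts in any sample. The mesenchyme and neuronal sums with miR-10a, the ventral midbrain sum with miR-10b, and the hindbrain, forebrain, neural crest, pluripotent and endoderm sums with either vector overlapped between dox and control samples. The part of these marker genes in the falls of SP5, DKK1, SFRP1 and SFRP2 was not tested, and in bulk samples fewer cells of a type and less RNA per cell cannot be told apart.

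The control groups of both vectors were then compared with each other, to see how the members differed without doxycycline. The precursors already differed between these groups at a low level. MIR10B was at 2.89 to 4.45 CPM in the miR-10b controls and 0.482 to 1.04 CPM in the miR-10a controls, and MIR10A was at 0.641 to 1.37 CPM in the miR-10a controls and no higher than 0.0794 CPM in the miR-10b controls. SP5 was 2.82-fold lower in the miR-10b controls than in the miR-10a controls, at 19.5 ± 0.956 against 55.2 ± 2.69 CPM (mean ± SD, n = 3). This log2 difference of -1.50 ± 0.07 (SE, adjusted p = 4.03e-19) was larger than every effect of doxycycline on the 8 members tested. SFRP2 was 34.9% lower, at 109 ± 1.36 against 168 ± 5.16 CPM (log2 difference -0.62 ± 0.04, adjusted p = 2.09e-15). FRZB and AXIN2 were lower by 15.7% (-0.25, adjusted p = 0.0169) and 8.02% (-0.12, adjusted p = 0.0174). In all, 4 of 8 members passed, all lower, beside 14.1% of all tested genes in either direction and 6.72% lower. In 6 members every miR-10b control sample lay below every miR-10a control sample, beside 15.9% of all tested genes. DKK1 (-0.44, adjusted p = 0.0774), SFRP1 (-0.07, adjusted p = 0.0959), NKD1 (-0.06, adjusted p = 0.324) and DKK3 (0.20, adjusted p = 0.775) did not pass.

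The calls on the smaller differences were not kept when some of the libraries were left out. The log2 differences then stayed between -0.31 and -0.20 for FRZB and between -0.13 and -0.11 for AXIN2. FRZB missed the threshold without miR-10a control replicate 1 (adjusted p = 0.126), miR-10a control replicate 3 (adjusted p = 0.0707) or miR-10b control replicate 3 (adjusted p = 0.114), and AXIN2 without miR-10a control replicate 3 (adjusted p = 0.0902), miR-10b control replicate 2 (adjusted p = 0.0929) or miR-10b control replicate 3 (adjusted p = 0.0501). In these groups the summed level of the mesenchyme genes was 145 to 148 CPM in the miR-10a controls and 349.9 to 369.9 CPM in the miR-10b controls, and that of 10 ventral midbrain genes 2699 to 2741 against 3680 to 3707 CPM, most of it from NTN1. The sums over roof plate and dorsal genes (51.4 to 53.1 against 69.0 to 75.7 CPM), hindbrain genes (23.5 to 26.9 against 34.0 to 36.5 CPM) and neural progenitor genes (12807 to 12908 against 14123 to 14252 CPM) were also higher in the miR-10b controls. Of the 11 hindbrain genes, 7 did not exceed 3 counts in any sample, EGR2, HOXA3, HOXB1, HOXB2, HOXB3, HOXB4 and HOXD3. The most abundant of that list was GBX2, at 9.69 to 18.4 CPM over the 12 samples. The pluripotent sum, from DPPA4 with the other 4 genes at 3 counts or fewer, was lower there, at 105 to 110.5 against 140.1 to 148.5 CPM. The part of these marker genes in the members' difference was not tested. The vectors differed between these groups, and the vector, the transduced population and the culture cannot be told apart.

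**Figure D3:**
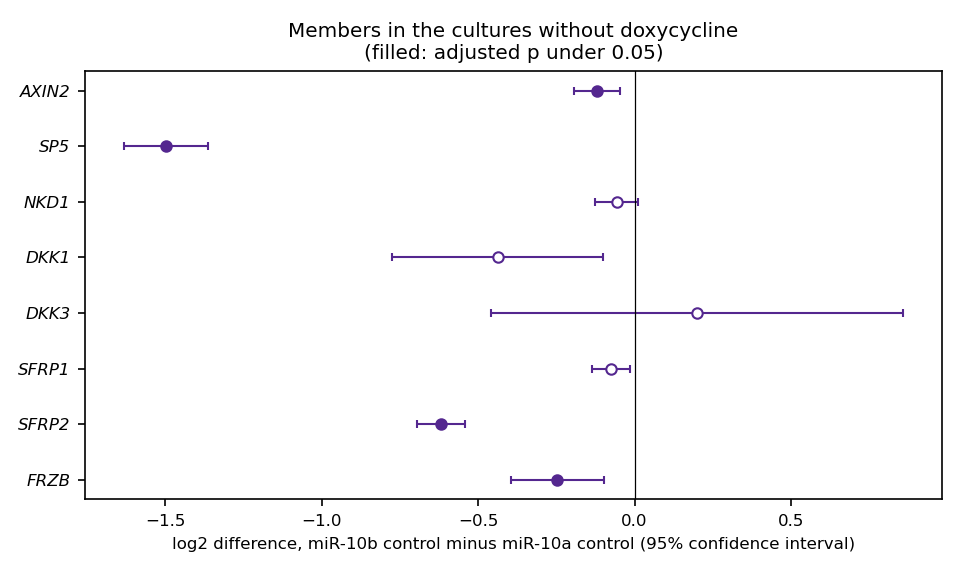
Log2 difference, miR-10b control minus miR-10a control (horizontal axis), of the 8 members tested, with 95% confidence intervals. Filled points have an adjusted p under 0.05, which holds for AXIN2, SP5, SFRP2 and FRZB, and SP5 lies farthest from 0 at -1.50.

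The remaining genes of the pathway were described by role, from lists of ligands, receptors, transducers, nuclear factors and further targets and inhibitors. Among 21 ligands and their secretion factors, 10 were tested. WNT1, which is expressed at the midbrain and roof plate of the neural tube, fell with both vectors, from 43.0 to 31.5 CPM with miR-10a and from 46.8 to 29.8 CPM with miR-10b (group means, log2 fold change -0.45 and -0.65, adjusted p = 3.22e-05 and 1.11e-09). WNT8B fell with both vectors as well (-0.19 and -0.17, adjusted p = 0.00551 and 0.00351). With miR-10b, WNT7B fell (-0.65, adjusted p = 0.00389) and WNT5A, a ligand mainly linked to non-canonical signalling, rose (0.23, adjusted p = 0.00179). Thus 2 of 10 ligand genes passed with miR-10a, beside 1.21% of all tested genes, and 4 of 10 with miR-10b, beside 15.3%. WNT8B with miR-10a missed the threshold without miR-10a dox replicate 3 (-0.15, adjusted p = 0.102).

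Of the 13 further target genes, 7 were tested. APCDD1, a membrane protein that binds WNT and LRP5 and inhibits signalling, fell with both vectors (-0.14 and -0.13, adjusted p = 0.00629 and 0.00293). With miR-10a its call was lost without miR-10a dox replicate 1 (adjusted p = 0.0589), miR-10a dox replicate 3 (adjusted p = 0.0657) or miR-10a control replicate 3 (adjusted p = 0.052). BAMBI, a target gene that acts as a decoy receptor of TGF-β signalling, fell with miR-10b (-0.37, adjusted p = 9.90e-05), as did CCND1, the cell cycle gene for cyclin D1 (-0.16, adjusted p = 1.96e-04). BAMBI was at -0.14 with miR-10a (adjusted p = 0.438). None of the 7 passed the test as higher. Of the 14 further inhibitors and DKK co-receptors, 7 were tested. IGFBP4, an IGF-binding protein that also antagonises WNT receptors, fell with miR-10b (-0.20, adjusted p = 0.0206), but not without miR-10b dox replicate 3 (adjusted p = 0.074) or without miR-10b control replicate 1, 2 or 3 (adjusted p = 0.0583, 0.0524 and 0.0529). APCDD1 belongs to this list too. KREMEN1, a receptor of DKK proteins, rose over both vectors (0.16, adjusted p = 0.00649), but missed the threshold on thinned counts (0.12, adjusted p = 0.0548).

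Among the other roles, the transducers and nuclear factors that passed the test were higher, and the receptor that passed was lower. Of 14 receptor genes tested, FZD7 alone passed in either vector or the average, lower with miR-10b (-0.16, adjusted p = 0.00645). With miR-10b, 15.3% of all tested genes passed in either direction and 7.15% as lower. Of 9 transducers tested, 3 rose with miR-10b, APC2 (0.15), DVL2 (0.11) and DVL3 (0.17), with adjusted p of 0.00153, 0.0308 and 6.13e-04, beside 8.18% of all tested genes that were higher. The call on DVL2 was lost with TMM (adjusted p = 0.0731), with DESeq2 (adjusted p = 0.106), with only the samples compared (adjusted p = 0.0872) and without miR-10b dox replicate 1 or 2 (adjusted p = 0.0662 and 0.134) or miR-10b control replicate 1 or 2 (adjusted p = 0.121 and 0.0893). APC2 belongs to the destruction complex, and the DVL proteins carry the signal from Frizzled to it. Of 10 nuclear factors tested, 3 rose with miR-10b, TCF7L1 (0.16), BCL9 (0.12) and BCL9L (0.23), with adjusted p of 0.00902, 0.0076 and 6.92e-04, again beside 8.18% of all tested genes. TCF7L1 missed the threshold without miR-10b dox replicate 2 (adjusted p = 0.0868) or miR-10b control replicate 2 (adjusted p = 0.0739), and BCL9 without miR-10b control replicate 3 (adjusted p = 0.0699). TCF7L1 is mostly a repressor of target genes, and BCL9 and BCL9L are co-activators of β-catenin. With miR-10a none of the transducers or nuclear factors passed, where BCL9L was at 0.19 (adjusted p = 0.0527). BCL9L did pass with a replicate block (adjusted p = 0.0214), without a filter on low counts (adjusted p = 0.00277), with only the samples compared (adjusted p = 0.00346), on thinned counts (adjusted p = 0.041) and without miR-10a control replicate 2 (adjusted p = 0.0137), and APC2 with only the samples compared (adjusted p = 0.0273). With all 12 samples no difference between the vectors passed the test in these 6 lists. IGFBP4 did so without miR-10a dox replicate 1 (adjusted p = 0.04) and WNT5A without miR-10b dox replicate 3 (adjusted p = 0.0332). The median log2 change with miR-10b was -0.13 for further targets, -0.13 for further inhibitors, -0.14 for ligands, -0.04 for receptors, 0.11 for transducers and 0.12 for nuclear factors, beside 0.02 for all tested genes.

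**Figure D4:**
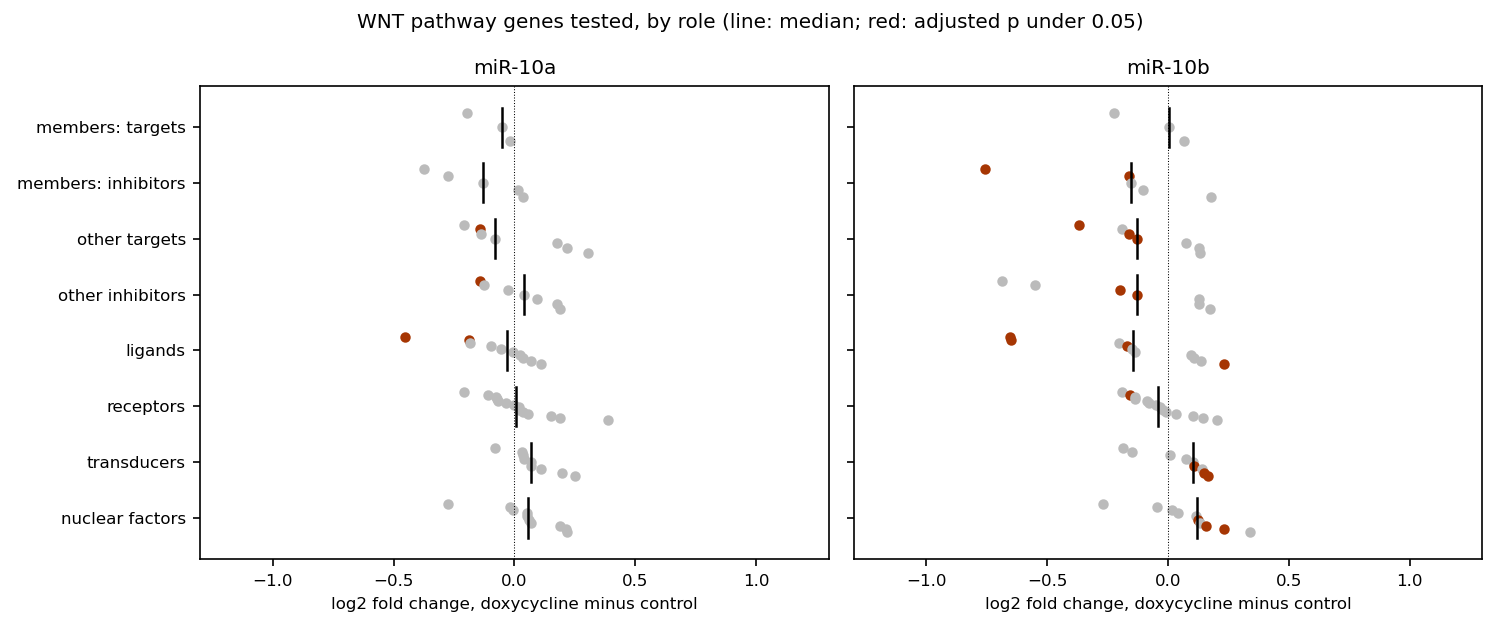
Log2 fold change, doxycycline minus control (horizontal axis), of the tested genes of each role, with miR-10a on the left and miR-10b on the right. Points are genes, red where the adjusted p is under 0.05, and the black line is the median of the role. With miR-10b the red points of targets, inhibitors and receptors lie below 0, those of transducers and nuclear factors above 0, and ligands have both.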

How the data were processed

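RNA of 12 samples was sequenced as 50-bp single-end reads, mapped by the authors to hg19 and quantified to RefSeq. The submitters' processing notes name STAR, featureCounts and Subread. The deposited values are raw counts per transcript, 1 file per sample. How reads shared by transcripts were handled is not given in the sources used here. The methods name the RNeasy and NuGEN kits and the labels the miRNeasy and Illumina kits.

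Repeated rows of a transcript were dropped, and the transcript with the highest mean count was kept per gene. The test was edgeR's quasi-likelihood test (edgeR 4.0.16, R 4.3.3) with Benjamini-Hochberg adjustment and a threshold of 0.05, on genes with a mean above 10 counts, with 4 group means in 1 fit and the total count as library size, since the study scaled to total reads. Errors are SE of the fit. The code was tested on simulated data. Tables and figures used Python 3.11.15.

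Replicate numbers did not pair the samples. This was read from the correlation, over genes, of deviations from the group mean between dox and control samples of a vector. It was -0.03 on average for same-numbered samples, from -0.08 to 0.02. For differently numbered samples it was 0.02 on average, from -0.06 to 0.11. The alternatives were TMM, DESeq2 1.42.0, other filters, a replicate block, fits of only the groups compared, summed transcripts and leaving out each replicate. Thinning counts to the smallest total and searching every annotated 3′UTR were added after seeing the data. Matches in the 3′UTR of the counted RefSeq transcript were not analysed here.

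The members and lists were chosen with earlier results of these data known. Pathway genes named beside the members have an adjusted p under 0.05 for either vector or the average, at most 6 a list. The precursors and some marker genes are named as well.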

Additional observations from a re-analysis of the deposited data

Results flagged for a closer look

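The effect of doxycycline on SFRP1 differed between the vectors, by -0.18 on the log2 scale (miR-10b minus miR-10a), in a test of the difference itself (adjusted p = 0.0158, edgeR). SFRP1 was lower in 3 of 3 miR-10b dox samples than in every control, and the miR-10a groups overlapped. Groups of 3 samples were too small for a check of single outlying values.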

How the results depend on the processing

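No difference past the threshold changed sign under any alternative run. Small differences that did not pass did so in some, among them AXIN2 and DKK3 with miR-10b and SFRP1 and FRZB with miR-10a. The same held for DKK3 in the average and between the uninduced groups, and for SP5 in the difference between vectors. Of the pathway genes, IGFBP4, WNT7B and WNT5A with miR-10a were further cases. With only the samples compared, the count of genes changed with miR-10a was 272 against 139, and 2 members, SFRP2 and SP5, passed. With miR-10b, 4 members passed with TMM (SP5, adjusted p = 0.0456, and SFRP2, adjusted p = 0.0386, in addition), 1 above a mean of 50 counts, where DKK1 is not tested, and 1 with DESeq2, which gave DKK1 no adjusted p. Without a filter the difference between vectors was called in 343 genes against 224. With the core CTTTGA, 2 members held a motif. For the uninduced difference, FRZB had an adjusted p of 0.0507 with DESeq2, and AXIN2 0.0553 on thinned counts. Leaving out 1 replicate gave 78 to 104 genes with miR-10a (78 without miR-10a dox replicate 1, 84 and 81 without miR-10a control replicates 1 and 3) and 140 (without miR-10a control replicate 2) to 340 (without miR-10b dox replicate 3) for the difference between vectors. It gave 1 to 2 members with miR-10b, 0 to 1 for the difference, and 2 to 4 for the uninduced groups. With a replicate block, 0, 2, 4, 1 and 4 members passed in the 5 comparisons, the same genes as without it, and 166, 1826, 1680, 274 and 1689 genes.

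Higher against lower calls were 937 to 819 with miR-10b (766 to 963 with TMM, 498 to 808 with DESeq2), 878 to 712 on average (665 to 852, 464 to 743), 54 to 85 with miR-10a (36 to 93 with DESeq2) and 66 to 158 for the difference (22 to 165 with DESeq2). Depth limits LEF1, RNF43, DKK3 and DKK1, and 3 samples a group limit the rest.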
